A study of Mus musculus with 6 samples.

Results

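The genes described here build or control the axoneme, the microtubule shaft of motile cilia and of the sperm tail. The 42 genes were chosen by function around Cfap52 and Mns1, which had been seen to be lower on these arrays without full-length Nanos2, and Lrrc18, a leucine-rich repeat gene that was called on the same arrays, was added to them. Of these 42, 28 were among the 16535 genes in all to which an array probe could be matched, through 39 probes. Because the choice used the difference from Nanos2+/-, that difference is given for Cfap52, Mns1 and Lrrc18 as a description with no test.

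Total RNA of whole mouse male gonads at E14.5, an embryonic stage, on a mixed ICR and N2 background was labelled with Cy3 and hybridised to single-colour oligonucleotide arrays, 2 for each of 3 genotypes. Nanos2+/- gonads carried 1 intact allele of Nanos2, which encodes an RNA-binding protein of male gonocytes, and 1 allele in which it was replaced by LacZ. Nanos2-/- gonads had no intact allele. Nanos2-/-_Tg gonads had none either but carried a transgene for 3×FLAG-tagged Nanos2-ΔN10, a NANOS2 protein without its N-terminal end that does not bind the CCR4-NOT deadenylation complex, driven by the Nanos2 enhancer and therefore active in germ cells. The question was which transcripts depend on NANOS2 and on that interaction. No wild-type gonad was among the arrays, and the sources used here do not say how many gonads or embryos went into an array, so p-values measure the spread between arrays, which may be technical.

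A motile axoneme has a ring of doublet microtubules that slide when dynein arms pull on the neighbouring doublet. Nexin-dynein regulatory complexes and radial spokes convert sliding into bending, a central pair of microtubules sets the plane in most motile cilia, and tektins and other proteins line the inside of the doublets. Foxj1 and the RFX factors switch on many of these genes, and RFX proteins bind a palindromic promoter element known as the X-box, whose arms read GTTNCC. In the testis, axonemal genes are best known from spermatids, which appear only after birth, although meiotic germ cells transcribe some of them earlier.

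Because RFX factors are the known common regulators of axonemal genes, the promoters were read for the X-box arm. Promoters of 250 bases before to 50 after the transcript start were found for 38 of the 42 genes (RefSeq, GRCm38.p6), and none was found for Foxj1, Rsph1, Rsph4a and Lrrc18. The letters GTTNCC, searched on both strands, were in a promoter of 31 of these 38 genes (81.6%) and of 48.8% of all 27025 genes of the table. The longer string GTTNCCAT, which contains the first, was in 9 of 38 (23.7%) and in 5.12% of all genes. The shares for another 66 motile cilium genes with a promoter were 77.3% and 18.2%, and for 40 genes of primary cilia and intraflagellar transport 82.5% and 2.5%. The arm was therefore as frequent in front of genes shared by all cilia, while the longer string was found in 1 of those 40. These shares are descriptions of letters and not of bound sites. Shown here, from 120 bases before the start to 20 after it and read 5′ to 3′ along the gene, are 7 promoters of genes whose arrays are described in detail, with every match to either string in capitals, and the promoter of Efhc2, as one without a match. Among other genes tested, Dnal1, which lay lower without Nanos2 like most of those shown, and Dnah11, whose genotypes overlapped, have no match either, and Spef1, whose level was even over the arrays, has 2. For Tekt1 the table holds a second promoter further downstream, which has no match and is not shown.
Cfap52, chr11:67965623-67965762, minus strand: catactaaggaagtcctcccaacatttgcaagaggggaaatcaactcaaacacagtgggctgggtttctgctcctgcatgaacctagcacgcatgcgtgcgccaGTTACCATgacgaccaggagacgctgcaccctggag
Mns1, chr9:72438409-72438548, plus strand: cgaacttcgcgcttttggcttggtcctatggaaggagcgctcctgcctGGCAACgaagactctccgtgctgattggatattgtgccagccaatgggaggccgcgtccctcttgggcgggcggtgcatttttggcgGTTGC
Drc1, chr5:30281273-30281412, plus strand: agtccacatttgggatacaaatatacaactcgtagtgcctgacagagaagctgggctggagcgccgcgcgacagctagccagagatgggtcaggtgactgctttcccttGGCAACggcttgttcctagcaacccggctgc
Tekt1, chr11:72361863-72362002, minus strand: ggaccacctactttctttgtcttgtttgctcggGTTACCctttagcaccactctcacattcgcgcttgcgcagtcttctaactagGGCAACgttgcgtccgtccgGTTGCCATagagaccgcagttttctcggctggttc
Ropn1l, chr15:31453670-31453809, minus strand: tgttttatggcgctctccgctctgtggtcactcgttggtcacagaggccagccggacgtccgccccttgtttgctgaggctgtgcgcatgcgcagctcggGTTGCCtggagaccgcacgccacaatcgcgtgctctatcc
Iqcg, chr16:33056167-33056306, minus strand: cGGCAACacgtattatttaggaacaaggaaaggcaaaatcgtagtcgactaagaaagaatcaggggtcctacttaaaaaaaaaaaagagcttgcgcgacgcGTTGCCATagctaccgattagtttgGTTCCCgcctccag
Ccdc113, chr8:95533980-95534119, plus strand: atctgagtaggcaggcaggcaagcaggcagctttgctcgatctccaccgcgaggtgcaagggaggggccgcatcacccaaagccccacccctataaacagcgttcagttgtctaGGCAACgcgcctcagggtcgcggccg
Efhc2, chrX:17319922-17320061, minus strand: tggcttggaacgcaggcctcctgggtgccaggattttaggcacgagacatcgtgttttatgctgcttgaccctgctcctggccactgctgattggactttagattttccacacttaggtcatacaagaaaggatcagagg
Cfap52, Tekt1 and Iqcg hold the longer string, within 20 bases before the start. Drc1, Ropn1l and Ccdc113 hold the arm alone, also within 20 bases before it. In Mns1 1 arm lies 72 bases before the start, and a second, whose last base falls outside the printed stretch, begins in the transcript.

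Every value below is the scaled processed signal of an array on a log2 scale, on which 1 unit is a 2-fold difference, and the brightest probe stands for a gene that has more than 1. Levels of different genes come from different probes and are not compared. No probe was matched for 14 genes, namely Ak7, Ccdc40, Cfap126, Cfap44, Dnah1, Dnah2, Dnah9, Dnai2, Enkur, Lrrc23, Rsph4a, Spag17, Spef2 and Tekt3. Dnah5 and Cfap206 were well above background on 1 array each and Spag6 on none, so these 3 were not tested. That left 25 genes with a probe clearly detected on both arrays of some genotype, and 24 of them were detected so on all 6 arrays. A filter of this kind can keep a dim gene only through the genotype in which it is bright. Among the 25, Lrrc18 alone was not well above background on every array. It passed through Nanos2-/- as well as Nanos2+/-.

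The labelled genotypes were checked first with the probe for Nanos2. It read 9.42 and 10.78 in Nanos2+/-, was at the floor on both Nanos2-/- arrays and read 13.28 and 14.25 in Nanos2-/-_Tg. The slide with the Nanos2+/- arrays held neither of the other genotypes, which shared a second slide, so slide and genotype cannot be told apart in any comparison with Nanos2+/-, and only Nanos2-/-_Tg against Nanos2-/- was measured within a slide. Over all probes tested, the median absolute gap between replicates was 0.33 for Nanos2+/-, 0.20 for Nanos2-/- and 0.18 for Nanos2-/-_Tg. An exact test of 2 arrays against 2 cannot give a two-sided p below 0.333, so tests were made with limma over all 26712 probes tested, and a call needed a 2-fold difference and an adjusted p (Benjamini-Hochberg) under 0.05. Germ cell and Sertoli cell markers were present on every array: Ddx4 read between 13.97 and 14.34 and Sox9 between 11.18 and 11.44. These 2 genes give presence and not amount. On the Nanos2+/- arrays the summed signal of all germ cell markers tested was 177489 and 280773. That of the Sertoli cell markers was 150200 and 217055.

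The median of the axonemal genes lay lower in both genotypes without intact Nanos2, but part of the genes carried the difference. It includes Cfap52, Mns1 and Lrrc18, which were chosen for being lower, unless they are left out by name. Slide and genotype cannot be told apart in these comparisons. Over the 25 genes tested, the median signal was 8.67 and 8.69 on the Nanos2+/- arrays, 8.33 and 8.12 on the Nanos2-/- arrays and 8.03 and 7.93 on the Nanos2-/-_Tg arrays. The median difference from Nanos2+/- was -0.45 in Nanos2-/- and -0.30 in Nanos2-/-_Tg, where over all 12983 genes tested it was -0.07 and -0.02. Under normexp background correction both medians turned to 0.024 and 0.077, while the median of all probes moved to 0.56 and 0.52. The move was uneven over genes: in Nanos2-/- Mns1 went from -0.71 to 0.28, but Foxj1 from 0.90 to 0.27. A normexp value therefore cannot simply be set off against the median of all probes. Without Cfap52, Mns1 and Lrrc18, the medians of the other 22 genes were -0.24 and -0.22. When Nanos2+/- replicate 1 was left out, the median difference of the 25 in Nanos2-/- was -0.24, and that of all probes tested was -0.16. In bulk RNA, fewer cells that express a gene and less RNA per cell cannot be told apart.

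Of the 22 genes not used in the choice, limma called 0 against Nanos2+/- in Nanos2-/-, against 0.0674% of all probes tested, and 0 in Nanos2-/-_Tg, against 0.105%. These 22 and the other gene lists below were taken by function, but with earlier results of these data known. An unadjusted p below 0.05 was found for 7 and 9 of the 22, against 8.50% and 10.2% of all genes, and these shares are the background of every such count below. Over all 25 genes the calls numbered 0 and 2, but the 2 are Cfap52 and Lrrc18, which were chosen for this difference, and nothing is read from them. Without adjustment, the methods' t-test together with a 2-fold limit passed, among the 22, Tekt1 in the first comparison and Efhc2 in the second. Of these 22 genes, 3 lay at least 2-fold lower in each comparison, namely Drc1, Ccdc113 and Tekt1, against 1.93% and 1.92% of all genes. None lay 2-fold higher in Nanos2-/-, where 0.870% of all genes did, and 3 did so in Nanos2-/-_Tg, namely Foxj1, Efhc2 and Spag16, against 1.29%. Without Nanos2+/- replicate 1 Efhc2 alone stayed 2-fold higher, as Foxj1 came to 0.92 and Spag16 to 0.39, and without Nanos2-/-_Tg replicate 1 Spag16 came to 0.23. Of the 3 lower genes, only Tekt1 stayed 2-fold lower without Nanos2+/- replicate 1. Drc1 came to -0.73 and -0.63 and Ccdc113 to -0.10 and -0.61. In that setting Spag16 came to -1.23 in Nanos2-/- and Iqcg to -1.03 in Nanos2-/-_Tg.

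**Figure D1:**
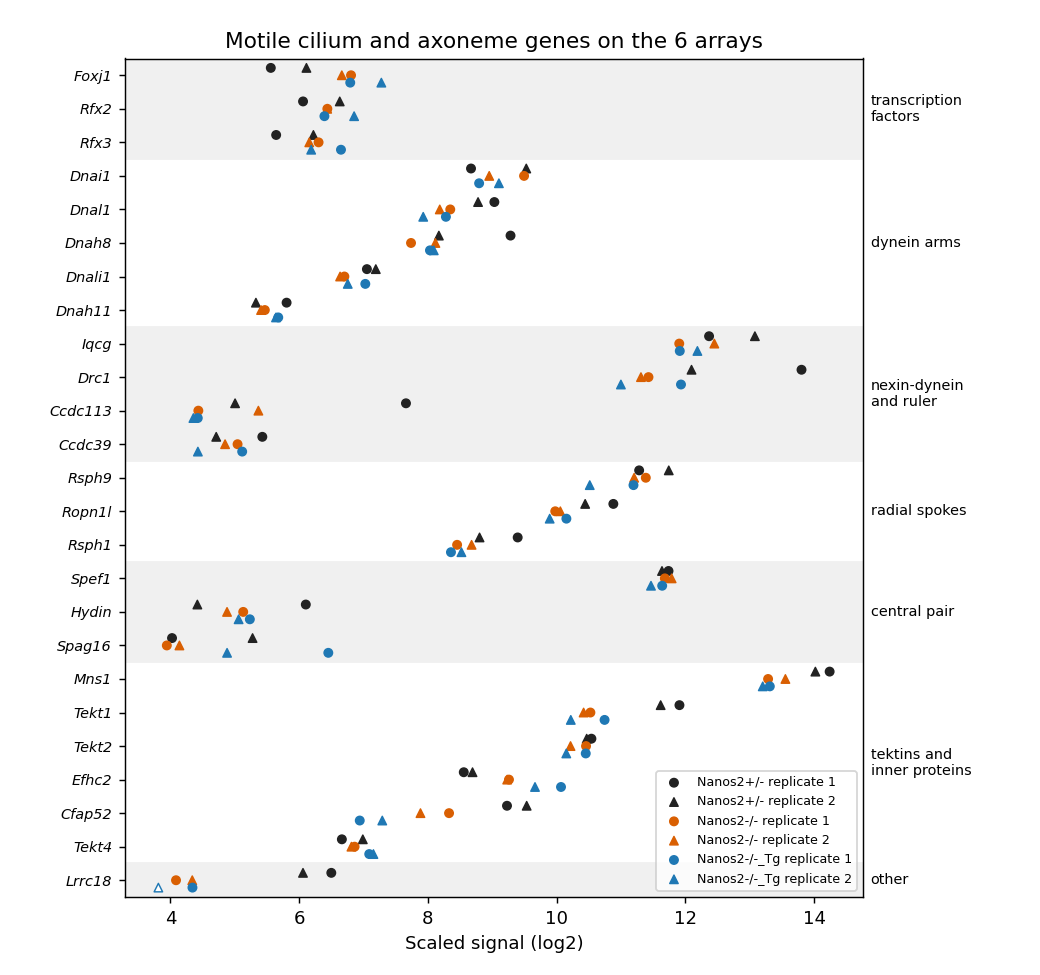
Scaled signal (log2, horizontal axis) of the 25 genes tested on each of the 6 arrays, grouped by role; circles are replicate 1 and triangles replicate 2, black for Nanos2+/-, orange for Nanos2-/- and blue for Nanos2-/-_Tg, and an open symbol is not well above background. Both black symbols lie to the right of all 4 coloured ones for 11 genes, among them Mns1, Tekt1, Cfap52 and Lrrc18, and to the left of them for Foxj1 and Efhc2.

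Groups of 2 arrays can lie apart without overlap by little, so such counts were read against all genes. For 8 of the 22 genes not used in the choice both Nanos2-/- arrays lay under both Nanos2+/- arrays, as 24.7% of all genes did. For 2 of the 22 they lay above them, against 11.2%. For Nanos2-/-_Tg the counts among the 22 were 11 lower, against 21.0% of all genes, and 3 higher, against 17.3%. With Cfap52, Mns1 and Lrrc18, which were chosen for this difference, the lower counts were 11 and 14 of 25. Lower in both genotypes without overlap were Cfap52, Mns1, Lrrc18, Tekt1, Tekt2, Drc1, Ropn1l, Rsph1, Dnal1, Dnali1 and Dnah8, which is 8 of the 22 genes not used in the choice, where 15.4% of all genes were. Higher in both were Foxj1 and Efhc2, where 8.33% of all genes were.

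Of the transcription factors, Foxj1, the master regulator of motile cilia, lay on the higher side. It read 5.56 and 6.11 in Nanos2+/-, 6.81 and 6.66 in Nanos2-/- and 6.79 and 7.28 in Nanos2-/-_Tg. The 4 arrays without intact Nanos2 all lay above both Nanos2+/- arrays. The differences from Nanos2+/- were 0.90 ± 0.26 (SE; limma adjusted p = 0.344) and 1.20 ± 0.26 (limma adjusted p = 0.156), so neither passed the test. Under normexp they were 0.27 and 0.47. The median of all probes was then 0.56 and 0.52, but that move was uneven over genes. Rfx2 read 6.06 and 6.63 in Nanos2+/-, 6.44 and 6.44 in Nanos2-/- and 6.39 and 6.85 in Nanos2-/-_Tg. Rfx3 read 5.64 and 6.22, 6.30 and 6.16, and 6.65 and 6.19 in the same order. The genotypes overlapped for both RFX genes, and their differences from Nanos2+/- were between 0.09 and 0.49. Without Nanos2+/- replicate 1, the differences of Rfx2 were -0.19 and -0.0074.

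The tektins and the proteins inside the doublets did not all lie on the same side. Cfap52, a protein of the inner wall of the doublet also known as Wdr16, read 9.23 and 9.54 in Nanos2+/-, 8.33 and 7.89 in Nanos2-/- and 6.94 and 7.29 in Nanos2-/-_Tg. The 3 genotypes did not overlap and formed steps, with differences from Nanos2+/- of -1.28 and -2.27. Mns1, which is needed for sperm tail assembly and lines the doublets, read 14.24 and 14.02, then 13.29 and 13.55, then 13.31 and 13.20. Both genotypes without intact Nanos2 lay below Nanos2+/-, with differences of -0.71 and -0.87, and they overlapped each other. Under normexp the differences of Mns1 were 0.28 and 0.077, so their sign turned, while the median of all probes moved to 0.56 and 0.52. Lrrc18 read 6.50 and 6.06 in Nanos2+/-, 4.09 and 4.34 in Nanos2-/- and 4.34 and 3.81 in Nanos2-/-_Tg, where the last value was not well above background.

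Tekt1, which encodes a filament protein of the doublet wall, was not used in the choice and lay lower as well. It read 11.91 and 11.62 in Nanos2+/-, 10.53 and 10.42 in Nanos2-/- and 10.75 and 10.22 in Nanos2-/-_Tg. All 4 arrays without intact Nanos2 lay below both Nanos2+/- arrays. The differences were -1.29 ± 0.23 (limma adjusted p = 0.190) and -1.28 ± 0.23 (limma adjusted p = 0.119), and a second probe gave -1.25 and -1.41. Its relatives did not share this difference, since Tekt2 differed by -0.17 and -0.20 (-0.05 in each when replicate 2 of the genotype set against Nanos2+/- was left out) and Tekt4 by 0.01 and 0.29.

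Efhc2, a calcium-binding-domain protein of the same inner wall, lay on the other side. It read 8.56 and 8.69 in Nanos2+/-, 9.26 and 9.23 in Nanos2-/- and 10.07 and 9.66 in Nanos2-/-_Tg. The 3 genotypes did not overlap and stepped upward, in the reverse of the order of Cfap52. The differences from Nanos2+/- were 0.62 ± 0.21 (limma adjusted p = 0.414) and 1.24 ± 0.21 (limma adjusted p = 0.0940), and a second probe gave 0.68 and 1.34.

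**Figure D2:**
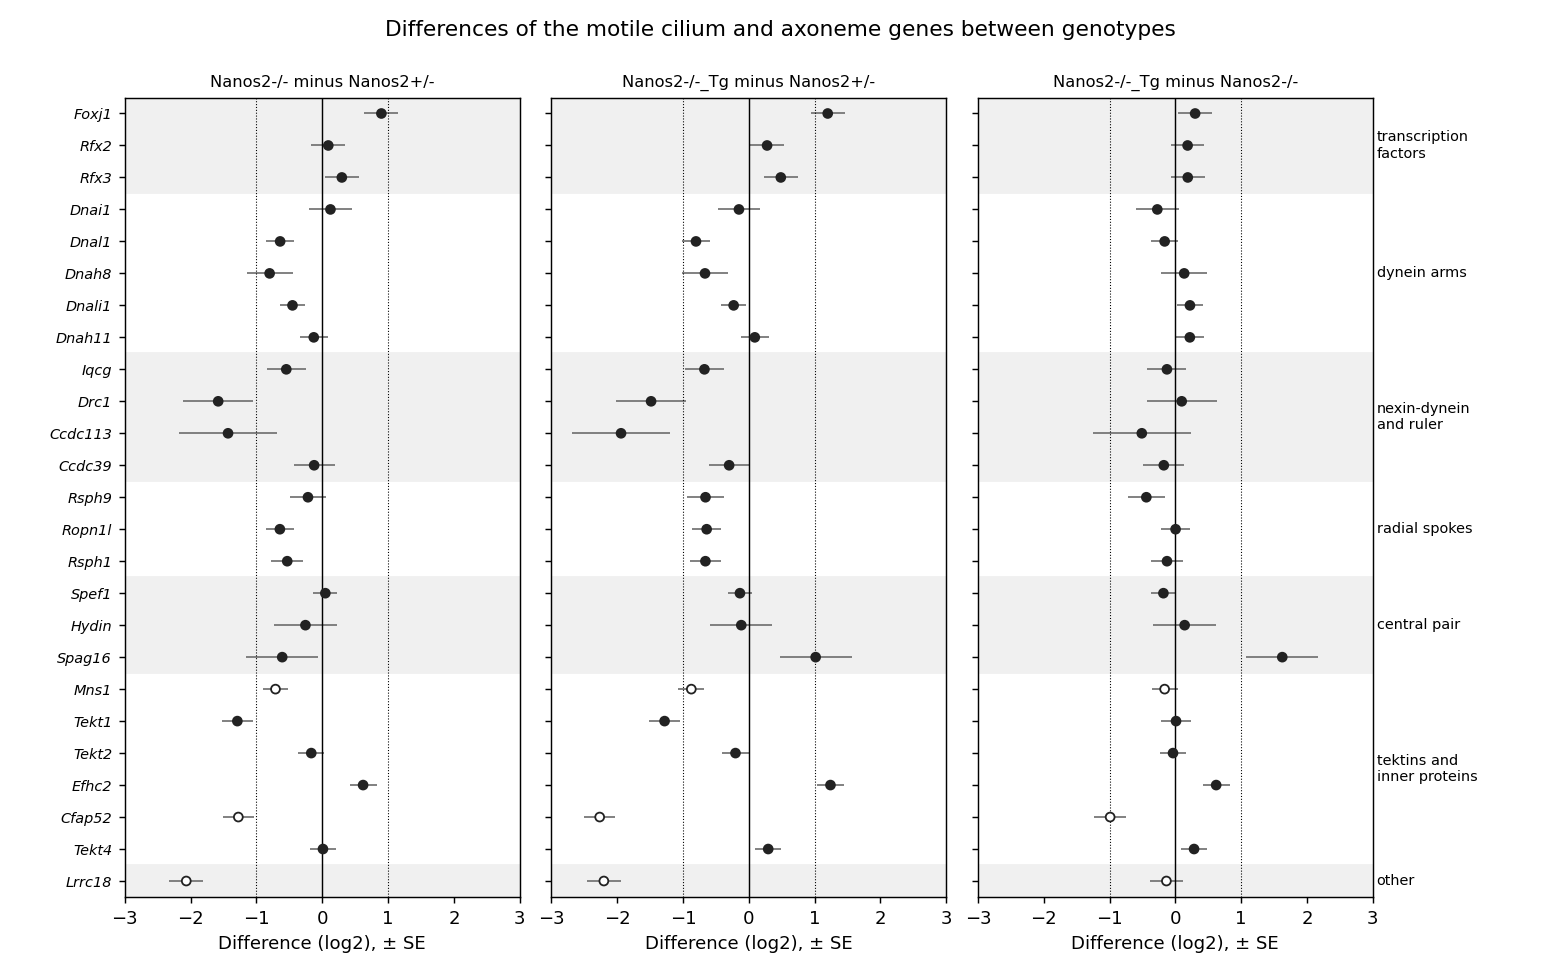
Difference in log2 signal (horizontal axis, with the standard error of the limma fit) of the 25 genes tested in the 3 comparisons, grouped by role; dotted lines mark 2-fold, and open symbols are Cfap52, Mns1 and Lrrc18, which were chosen for their difference from Nanos2+/-. In the middle panel Efhc2 lies at 1.24 and Tekt1 at -1.28, and in the right panel, measured within 1 slide, Cfap52 lies at -0.99 and Spag16 at 1.62.

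The nexin-dynein regulatory complex, which links neighbouring doublets, held large differences that rested on 1 array. Drc1, a core subunit, read 13.81 and 12.10 in Nanos2+/-, 11.43 and 11.31 in Nanos2-/- and 11.93 and 11.00 in Nanos2-/-_Tg. Both Nanos2+/- arrays lay above the other 4, but they lay 1.71 apart from each other. The differences were -1.58 ± 0.53 (limma adjusted p = 0.422) and -1.48 ± 0.53 (limma adjusted p = 0.339), and -0.73 and -0.63 without Nanos2+/- replicate 1. Ccdc113, a coiled-coil protein of the axoneme, read 7.66 and 5.01 in Nanos2+/-, 4.44 and 5.37 in Nanos2-/- and 4.43 and 4.36 in Nanos2-/-_Tg. Its differences of -1.43 and -1.94 became -0.10 and -0.61 without Nanos2+/- replicate 1. Iqcg, another subunit of the complex, read 12.37 and 13.08 in Nanos2+/-, 11.91 and 12.45 in Nanos2-/- and 11.91 and 12.19 in Nanos2-/-_Tg. Its differences were -0.55 and -0.67, the Nanos2-/- arrays overlapped Nanos2+/-, and without Nanos2+/- replicate 2 the differences of Iqcg were -0.19 and -0.32. Ccdc39, part of the molecular ruler that spaces the arms, differed by -0.12 and -0.30.

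Among the radial spoke genes, Ropn1l, which encodes a spoke protein that also binds A-kinase anchoring proteins in sperm, gave the same difference through 2 probes. Its brighter probe read 10.88 and 10.44 in Nanos2+/-, 9.98 and 10.06 in Nanos2-/- and 10.15 and 9.89 in Nanos2-/-_Tg. The genotypes without intact Nanos2 lay below Nanos2+/-, with differences of -0.64 and -0.64 and limma adjusted p = 0.423 and 0.311. Without Nanos2+/- replicate 1 the differences of Ropn1l were -0.43 and -0.42. Rsph1, of the spoke head, differed by -0.53 and -0.66 with no overlap, and by -0.24 and -0.36 without Nanos2+/- replicate 1. Rsph9, of the same head, read 11.28 and 11.74 in Nanos2+/-, 11.39 and 11.20 in Nanos2-/- and 11.19 and 10.52 in Nanos2-/-_Tg, and Nanos2-/- overlapped Nanos2+/-.

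The dynein arm genes gave differences of less than 2-fold. Dnal1, an outer arm light chain, differed from Nanos2+/- by -0.64 and -0.80 with limma adjusted p = 0.412 and 0.204. Dnah8, a heavy chain known from the sperm tail, read 9.28 and 8.17 in Nanos2+/- and between 7.74 and 8.12 on the other 4 arrays. Its differences of -0.80 and -0.67 became -0.24 and -0.11 without Nanos2+/- replicate 1. Dnali1, an inner arm chain, differed by -0.45 and -0.23, the latter -0.09 without Nanos2-/-_Tg replicate 2. Dnai1, an outer arm intermediate chain, and Dnah11, an outer arm heavy chain, differed by between -0.15 and 0.12, and their genotypes overlapped.

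The central pair genes did not share a direction. Spef1, a microtubule-bundling protein of the central pair, read between 11.47 and 11.79 on all 6 arrays. Hydin, a large protein of the central pair projections, read 6.10 and 4.42 in Nanos2+/- and between 4.88 and 5.23 elsewhere. Its differences of -0.26 and -0.11 became 0.59 and 0.73 without Nanos2+/- replicate 1. Spag16 read 4.03 and 5.28 in Nanos2+/-, 3.95 and 4.14 in Nanos2-/- and 6.45 and 4.88 in Nanos2-/-_Tg.

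Whether the ΔN10 protein changed these genes was addressed by Nanos2-/-_Tg against Nanos2-/-. The choice of Cfap52, Mns1 and Lrrc18 used both differences from Nanos2+/-, so the arrays compared here also entered that choice. For these 3 genes the comparison is a description, and nothing is read from their p-values. limma called 0 of the 25 genes, against 0.0187% of all probes tested, and the methods' t-test passed 0. The unadjusted limma p was below 0.05 for 3 of the 25 and for 2 of the 22 others, against 1.73% of all genes. The 3 were Spag16, Cfap52 and Efhc2. Cfap52 differed by -0.99 ± 0.24 (limma unadjusted p = 0.00372), Efhc2 by 0.62 ± 0.21 (limma unadjusted p = 0.0176) and Spag16 by 1.62 ± 0.55 (limma unadjusted p = 0.0192). Their limma adjusted p was 1. For Spag16 the Nanos2-/-_Tg arrays lay 1.57 apart. The median difference was 0.0038 over the 25 genes, 0.054 over the 22 and 0.05 over all genes. Both Nanos2-/-_Tg arrays lay under both Nanos2-/- arrays for 4 genes, 3 of them among the 22, against 8.01% of all genes. They lay above them for 5, all among the 22, against 23.0%.

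The Nanos2+/- arrays differed from each other at several of these genes, for most of them in a direction opposite to most of the array. Replicate 1 was at least 2-fold above replicate 2 for 4 of the 25 genes, namely Ccdc113, Drc1, Hydin and Dnah8, as it was for 1.68% of all genes. It was at least 2-fold below it for 1, Spag16 at -1.25, as it was for 285 of all 12983 genes. Of the 25 genes, 14 were higher in replicate 1. Over all genes replicate 1 lay lower, with a median difference of -0.28, and it was the higher array for 20.7% of them. In Nanos2-/- and Nanos2-/-_Tg a 2-fold excess of replicate 1 was seen for 0 and 1 of the 25 genes. Of 16 germ cell markers tested, 5 were higher in replicate 1 of Nanos2+/-, 2 of them at least 2-fold, while 5 were at least 2-fold lower, and their median difference was -0.35. The 2 that were at least 2-fold higher were Dnmt3l and Piwil1. The paper reports both as male-type genes that were lower without functional NANOS2, so they do not stand for the germ cell list. Dnmt3l, a cofactor of DNA methylation in male germ cells, read 13.40 and 11.12 in Nanos2+/-, 10.09 and 9.99 in Nanos2-/- and 10.66 and 10.06 in Nanos2-/-_Tg. Piwil1, a piRNA-binding protein, read 7.92 and 6.56, then 5.12 and 5.13, then 5.58 and 6.06. Pou5f1, a pluripotency factor, ran the other way between the Nanos2+/- arrays, at 10.62 and 12.43, and was also lower in replicate 1 of the other genotypes. The germ cell marker list as a whole, 16 of 18 genes tested, had a summed signal of 177489 and 280773 in Nanos2+/- and of 229918 to 265697 on the other arrays. limma called 0 of its genes in any comparison, with an unadjusted p below 0.05 for 4, 4 and 0. The part of these markers in the differences of the axonemal genes was not tested.

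**Figure D3:**
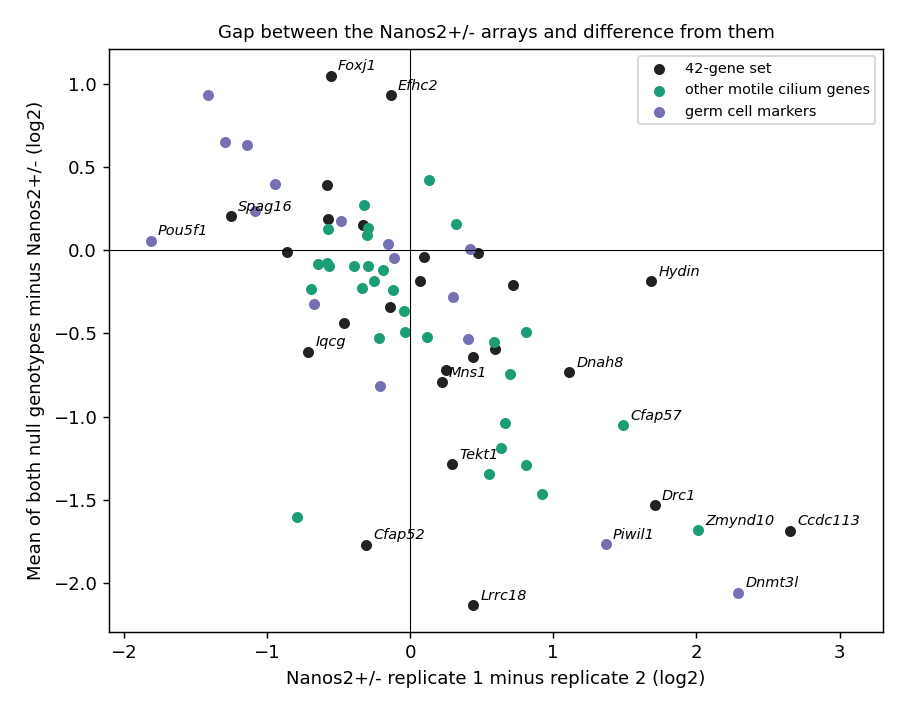
Difference between the Nanos2+/- arrays (replicate 1 minus replicate 2, log2, horizontal axis) against the mean difference of both genotypes without intact Nanos2 from Nanos2+/- (log2, vertical axis) for the 25 genes of the set (black), 31 other motile cilium genes (green) and 16 germ cell markers (purple). Ccdc113, Drc1, Zmynd10, Cfap57, Piwil1 and Dnmt3l lie at the lower right, whereas Cfap52, Lrrc18, Tekt1 and Mns1 lie low with a gap of less than 0.5 between the Nanos2+/- arrays. Of the 16 germ cell markers, 2 were at least 2-fold higher in replicate 1 and 5 at least 2-fold lower.

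A wider list of 89 other motile cilium genes gave 31 genes tested, and their values ran alongside those of the 42. limma called 0 of the 31 in any comparison, with an unadjusted p below 0.05 for 13, 10 and 1 in the order Nanos2-/- and Nanos2-/-_Tg against Nanos2+/- and the 2 against each other. Their median differences were -0.28, -0.28 and 0.07, and 8 and 5 of them lay at least 2-fold lower than Nanos2+/-, against 1.93% and 1.92% of all genes, while 0 lay 2-fold higher, against 0.870% and 1.29%. The 8 and the medians include Cfap65, a dim gene that the filter kept only through Nanos2+/-. Its part in that count is therefore no result. Zmynd10, a factor for the assembly of dynein arms, read 7.40 and 5.39 in Nanos2+/-, 4.77 and 4.62 in Nanos2-/- and 5.14 and 4.30 in Nanos2-/-_Tg. Cfap53, which tethers the outer arms inside the doublet, read 7.28 and 6.36, then 4.97 and 5.21, then 5.78 and 5.44. Cfap65, a central pair protein, read 4.49 and 5.28 in Nanos2+/- and was dim on both Nanos2-/- arrays, at least 2.41-fold lower. In Nanos2-/-_Tg it read 4.85 and 3.64, and the last value was not well above background. The filter therefore kept Cfap65 only through Nanos2+/-, where it was bright, and nothing is read from its lower values. Of the 31 genes, 29 were well above background on all 6 arrays. On the higher side stood Tp73, Rfx4 and Cfap69, whose differences from Nanos2+/- were between 0.12 and 0.45. Tp73 encodes a factor that acts upstream of Foxj1 in multiciliated cells.

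Genes that all cilia need, whether motile or not, had smaller median differences from Nanos2+/-, given as a description. Of 46 genes of primary cilia and intraflagellar transport, 43 were tested, all well above background on the 6 arrays. Their median differences were -0.10 and -0.09 from Nanos2+/- and 0.06 between the genotypes without intact Nanos2. At least 2-fold away from Nanos2+/- lay 0 of the 43. Of all genes, 1.93% and 1.92% lay 2-fold lower and 0.870% and 1.29% higher, shares so small that 0 of 43 says little. limma called 0 of them, with an unadjusted p below 0.05 for 3, 2 and 0. Without overlap, 12 and 16 of the 43 lay lower than Nanos2+/-, against 24.7% and 21.0% of all genes. Higher without overlap lay 0 and 5, against 11.2% and 17.3%. The lowest was Arl13b, a GTPase of the ciliary membrane, with a mean difference of -0.65 over both genotypes, and the highest was Ift52, a core subunit of the transport trains, with 0.36.

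**Figure D4:**
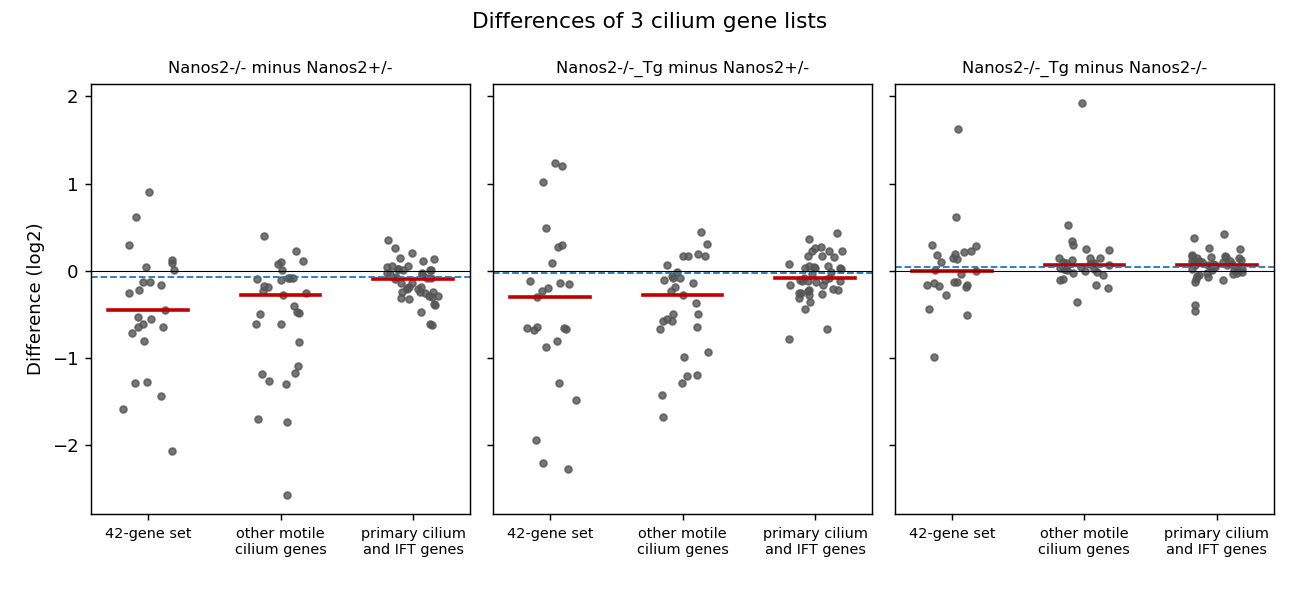
Difference in log2 signal (vertical axis) of single genes in 3 lists, the 25 genes tested of the 42, 31 other motile cilium genes and 43 genes of primary cilia and intraflagellar transport (IFT), in the 3 comparisons; red bars are medians and the dashed line is the median over all 12983 genes. In the 2 comparisons with Nanos2+/- the motile lists reach below -1 with medians of -0.45 to -0.28, while the primary cilium genes lie within 1 of 0. The first list includes Cfap52, Mns1 and Lrrc18, which were chosen for this difference, and without them its medians are -0.24 and -0.22.

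Other tissue that could carry ciliary genes was measured through markers of ducts and of surface epithelium. Of 16 mesonephros and duct markers 14 were tested and limma called 0, with an unadjusted p below 0.05 for 3, 4 and 1. Pax2 and Ret, which define the duct, were not well above background on any array. The summed signal of the list was 13059 and 17503 in Nanos2+/-, 12687 and 12939 in Nanos2-/- and 12858 and 14837 in Nanos2-/-_Tg. The 5 markers of coelomic and surface epithelium tested had a summed signal of 2291 and 2845 in Nanos2+/-, 2204 and 1990 in Nanos2-/- and 2754 and 2612 in Nanos2-/-_Tg, and limma called 0 of them, with an unadjusted p below 0.05 for 2, 1 and 0. Blood markers (8 tested) had in Nanos2-/-_Tg a median difference of 0.32 from Nanos2+/- and of 0.51 from Nanos2-/-, and limma called 0 of them, with an unadjusted p below 0.05 for 0, 1 and 4. Sertoli cell markers (13 tested) and Leydig cell markers (6 tested) had median differences from Nanos2+/- between -0.26 and -0.03, and limma called 0 of them, with an unadjusted p below 0.05 for 0. The part of these other tissues in the differences of the axonemal genes was not tested.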

How the data were processed

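The deposited scanner files give, per the file headers, the processed intensity of each spot after background subtraction by Agilent Feature Extraction 9.5, the version also given in the submitters' processing notes. The authors raised values under 5 to 5 and scaled each array to the 50th percentile. Here controls and outlier spots were left out, arrays were brought to a common 50th percentile before the floor of 5, and the mean log2 value of each of 41174 probes was taken. Accessions matched 23374 probes to RefSeq symbols. A linear model was fitted to the 26712 probes that both arrays of some genotype showed well above background (all 6 arrays, limma 3.58.1 with eBayes in R 4.3.3), after a test on simulated data. Python 3.11.15 with matplotlib 3.10.9 made the tables and figures. No column outside the 6 arrays was used. The number of arrays limits the precision.

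The members and gene lists were chosen with earlier results of these data known. Given by array were Cfap52, Mns1 and Lrrc18, the regulators, every called member, the 6 members farthest from Nanos2+/-, the 6 with the largest difference between the genotypes without intact Nanos2 and the 6 with the highest mean signal. Dnah8, Hydin and Ropn1l were added after their values were seen. Alternatives were other scalings, floors, filters and fits. For normexp the median spot signal was used, as the files used here hold no mean signal.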

Additional observations from a re-analysis of the deposited data

How the results depend on the processing

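In Nanos2-/- against Nanos2+/- the count of genes called was 0, and 1 (Lrrc18) with only the 4 arrays compared; the methods' t-test, unadjusted, passed 3. Leaving out single arrays gave 0 to 1, the 1 without either Nanos2-/-_Tg array. In Nanos2-/-_Tg against Nanos2+/- the count of 2 became 0 under the 75th percentile, quantile normalization, normexp, a floor of 20, no filter on dim probes and the methods' t-test after adjustment, and 1 with the filter on all 6 arrays, the intensity trend or all probes of a gene averaged. Leaving out single arrays gave 0 to 2, with 0 without either Nanos2+/- array and 1 without either Nanos2-/-_Tg array. The cause was not tested. With the replicate block, which rests on numbers alone as the labels do not say what a number shares (correlation of the replicate differences 0.26 to 0.36 over 2 pairs a comparison), the counts were 0, 3 and 0, the third call being Tekt1 at -1.28 (limma adjusted p = 0.0477), and calls over all probes in the second comparison went from 28 to 145. The median difference in Nanos2-/- was -0.35 with the filter on all 6 arrays, which removes Lrrc18, 0.024 under normexp, and -0.45 to -0.24 with single arrays left out, the latter without Nanos2+/- replicate 1. In Nanos2-/-_Tg it was 0.077 under normexp and -0.54 to -0.30 with single arrays left out, and between the genotypes without intact Nanos2 -0.12 to 0.12, the sign turning with the Nanos2-/-_Tg array left out. Under normexp, which moved the median of all probes to 0.56 and 0.52, the differences from Nanos2+/- turned for Mns1 (0.28 and 0.077), Iqcg (0.47 and 0.25), Rfx3 (-0.03 in Nanos2-/-) and Spag16 (-0.018 in Nanos2-/-_Tg). That move was uneven over genes, so these values are not set off against that median. With all probes of a gene averaged, Rfx3 turned to -0.19 and -0.001. Rfx2 ranged from -0.19 to 0.38 and from -0.0074 to 0.56 with single arrays left out. Over the combinations counted of a named gene, a comparison and an alternative, 484 kept direction and call and 10 turned. Another 24 kept the direction with another call, all of Cfap52, Lrrc18 and Tekt1. Rsph9, Spef1, Hydin and other genes were not counted, nor was Spag16 in Nanos2-/- against Nanos2+/-. Between the genotypes without intact Nanos2, only Cfap52, Efhc2 and Spag16 were counted. Without Nanos2+/- replicate 2, Spag16 and Rsph9 turned to 0.017 and 0.013 in Nanos2-/- against Nanos2+/-. Some alternatives, such as the replicate block, leave a difference as it is and could not turn it.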
